A study of Mus musculus with 6 samples.

Results

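The genes described here are 42 markers of T, natural killer (NK) and B lymphocytes, read in RNA of liver cells that had been selected for F4/80, the surface antigen of mouse macrophages. They were taken by name from a list that was chosen with earlier results of these data known. It held 19 T cell genes, 10 NK and cytotoxic genes and 13 B cell genes, out of 23394 genes with at least 1 matched transcript. All 42 had enough reads to be tested, among 15619 tested genes. The study compared 3 wild-type (WT) and 3 knockout (KO) libraries, from male C57BL/6 mice aged 3 months and kept on normal chow. Every mouse of either genotype had received carbon tetrachloride (CCl4) intraperitoneally, a liver toxin used to induce fibrosis, and there was no group without it. Livers were digested, F4/80+ cells were collected by magnetic selection, and polyadenylated RNA was sequenced with a strand-specific kit. The labels name neither the gene deleted in the KO mice nor a Cre driver, so the genotypes are known by label alone. They are also silent on whether the 3 libraries of a genotype are 3 mice. The p-values set the genotype difference against the spread between these libraries, which need not be the spread between mice.

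T cells recognise peptides through a receptor of variable chains that signals through the CD3 proteins and the kinases Lck and Zap70. NK cells use germline-encoded receptors and, like cytotoxic T cells, kill with perforin and granzymes. B cells carry surface immunoglobulin that signals through Cd79a and Cd79b, and become plasma cells that secrete antibody. All 3 kinds reside in the liver, which is known for its many NK and NK-like T cells, and none of them is a macrophage.

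The sequences just before the transcription starts of 6 members are shown here, each picked for holding a motif searched for below. Whether such motifs have a part in the shared movement of each lineage across libraries was not tested. RefSeq promoter windows of GRCm38 were found for 29 of the 42 members. Where a gene had several RefSeq starts (6 members, with up to 3 windows), the window of the most upstream start was counted. Its 250 bases before the start were searched on both strands for 6 motifs of lymphocyte transcription factors. The RUNX motif TGTGGT occurred in 7 of 9 NK windows, 1 of 12 T windows and 2 of 8 B windows, against 14.2% of all 27025 windows. The E-box CAGGTG, a core read by E2A proteins, occurred in 5 of 12 T, 3 of 9 NK and 4 of 8 B windows, against 17.1% of all windows. The EBF motif was found in Cd22 only (0.773% of all windows) and the T-box motif AGGTGTGA in Nkg7 only (1.14%); the latter can share the letters AGGTG with the E-box. The octamer ATGCAAAT (1.62% of all windows) and the ETS motif CCGGAAGT (2.92%) were in none of the 29. Over all windows of these genes, RUNX letters were found for 2 of 12 T cell genes (Zap70 added), the E-box for 6 of 12 T and 5 of 8 B cell genes (Lck and Fcer2a added), and the ETS motif for Tcf7, against 15.9%, 19.4% and 3.23% of all genes. The first 30 transcribed bases of 26 of the 37 windows lay in a GENCODE transcript of the gene. Those of the counted Gzmb, Ncr1 and Prf1 windows, all with RUNX letters, did not. Counted windows not matched to the transcript analysed were those of Cd22, Cd247, Cr2, Eomes, Gzmb, Il7r, Jchain, Lat, Lck, Ncr1, Pax5, Prf1 and Tcf7. The window of the transcript analysed held the E-box and no RUNX letters for Lck, and RUNX letters for Ncr1. These are matches of letters, not sites of binding. The RUNX and E-box letters of these windows are in capitals, and they read ACCACA or CACCTG where the match lies on the opposite strand. Bases that GENCODE places within the gene were left out, which removed the T-box match of Nkg7.

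Nkg7 (chr7:43436888-43437072, + strand): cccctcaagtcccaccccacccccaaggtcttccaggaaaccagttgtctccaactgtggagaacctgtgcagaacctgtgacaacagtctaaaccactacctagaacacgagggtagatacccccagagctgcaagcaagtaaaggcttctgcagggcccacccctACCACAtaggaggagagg

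Gzma (chr13:113100982-113101231, - strand): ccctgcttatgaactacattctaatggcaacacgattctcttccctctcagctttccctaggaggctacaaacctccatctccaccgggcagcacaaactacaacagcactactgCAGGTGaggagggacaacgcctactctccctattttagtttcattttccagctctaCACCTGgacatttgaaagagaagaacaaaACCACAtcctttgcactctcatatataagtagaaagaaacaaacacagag

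Klrk1 (chr6:129623865-129624114, - strand): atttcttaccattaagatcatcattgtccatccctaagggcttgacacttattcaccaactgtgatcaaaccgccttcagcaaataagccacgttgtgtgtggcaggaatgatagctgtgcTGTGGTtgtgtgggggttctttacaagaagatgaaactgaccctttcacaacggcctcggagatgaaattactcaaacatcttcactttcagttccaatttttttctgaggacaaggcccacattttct

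Cd3d (chr9:44981536-44981785, + strand): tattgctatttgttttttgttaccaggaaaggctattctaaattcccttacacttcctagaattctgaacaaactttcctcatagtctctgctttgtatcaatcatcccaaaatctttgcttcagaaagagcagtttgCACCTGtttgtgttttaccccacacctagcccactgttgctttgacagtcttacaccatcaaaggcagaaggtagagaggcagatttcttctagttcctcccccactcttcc

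Cd3g (chr9:44980432-44980681, - strand): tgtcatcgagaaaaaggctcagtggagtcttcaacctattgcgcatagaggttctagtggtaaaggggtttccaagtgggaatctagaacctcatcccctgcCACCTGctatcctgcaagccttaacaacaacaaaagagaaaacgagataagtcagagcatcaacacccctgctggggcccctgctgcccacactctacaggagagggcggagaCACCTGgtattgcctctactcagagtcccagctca

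Cd79a (chr7:24897247-24897380, + strand): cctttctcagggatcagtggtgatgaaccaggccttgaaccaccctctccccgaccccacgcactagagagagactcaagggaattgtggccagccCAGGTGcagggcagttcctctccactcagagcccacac

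The Gzma window holds the RUNX letters 50 bases before the start and E-boxes at 135 and 79 bases before it. Cd3d and Cd3g are transcribed away from each other from starts that lie 1355 bases apart, and both carry the E-box, at 112 bases before the start in Cd3d and at 148 and 35 in Cd3g.

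Values are the authors' normalised counts, each a read count divided by 1 factor per library. With 1 transcript per gene, the libraries held 10790842 to 22157238 reads. Mitochondrially encoded genes took 6.19% to 27.5% of the WT reads and 16.2% to 20.0% of the KO reads. Adgre1, which encodes F4/80, was at 6516, 7644 and 4463 normalised counts in the WT libraries and 4441, 4648 and 6673 in the KO libraries. Ptprc encodes CD45, which all leukocytes carry, and stood at 31336, 19289 and 23212 normalised counts in the WT libraries and 16097, 11273 and 9848 in the KO libraries, with no overlap (log2 change -0.99, adjusted p in limma 0.116). Per kilobase of transcript, the mean of Adgre1 over the 6 libraries was 1769.9 normalised counts, beside 1777 for Cd79a and 1764 for Cd79b. In cells labelled macrophage, Cd79a and Cd79b thus stood at the level of the selection antigen on the mean of the 6 libraries. Single libraries differed. Per kilobase, both genes lay above Adgre1 in WT replicate 3 and KO replicates 1 and 2. They lay below it in WT replicates 1 and 2 and KO replicate 3. The B cell members ranged from 82.7 (Cr2) to 12757 (Ighm) normalised counts per kilobase. The macrophage genes examined ranged from 218.5 (Fcgr1) to 34508 (Lyz2). In bulk RNA, fewer cells of a type and less RNA per cell cannot be told apart.

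No lymphocyte gene was called different between KO and WT. At an adjusted p under 0.05, limma called 0 of 42, where it called 2.44% of all tested genes (2.09% higher and 0.352% lower in KO). Before adjustment the count under 0.05 was also 0, against 18.0% of all genes. edgeR called 0 of 42 on the recovered reads (1.81% of all genes), and DESeq2 called 0 of 42 (9.02% of all genes). For 0 of the 42 did the 3 KO values lie apart from the 3 WT values, whereas 22.9% of all tested genes had no overlap (13.7% with KO above and 9.25% with KO below WT). The log2 changes (KO minus WT, on log2 of the normalised count plus 1) were above 0 for 21 members and below 0 for 21, with a median of 0.02 beside 0.05 over all genes. The smallest adjusted p in limma was 0.527, for Eomes.

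**Figure D1:**
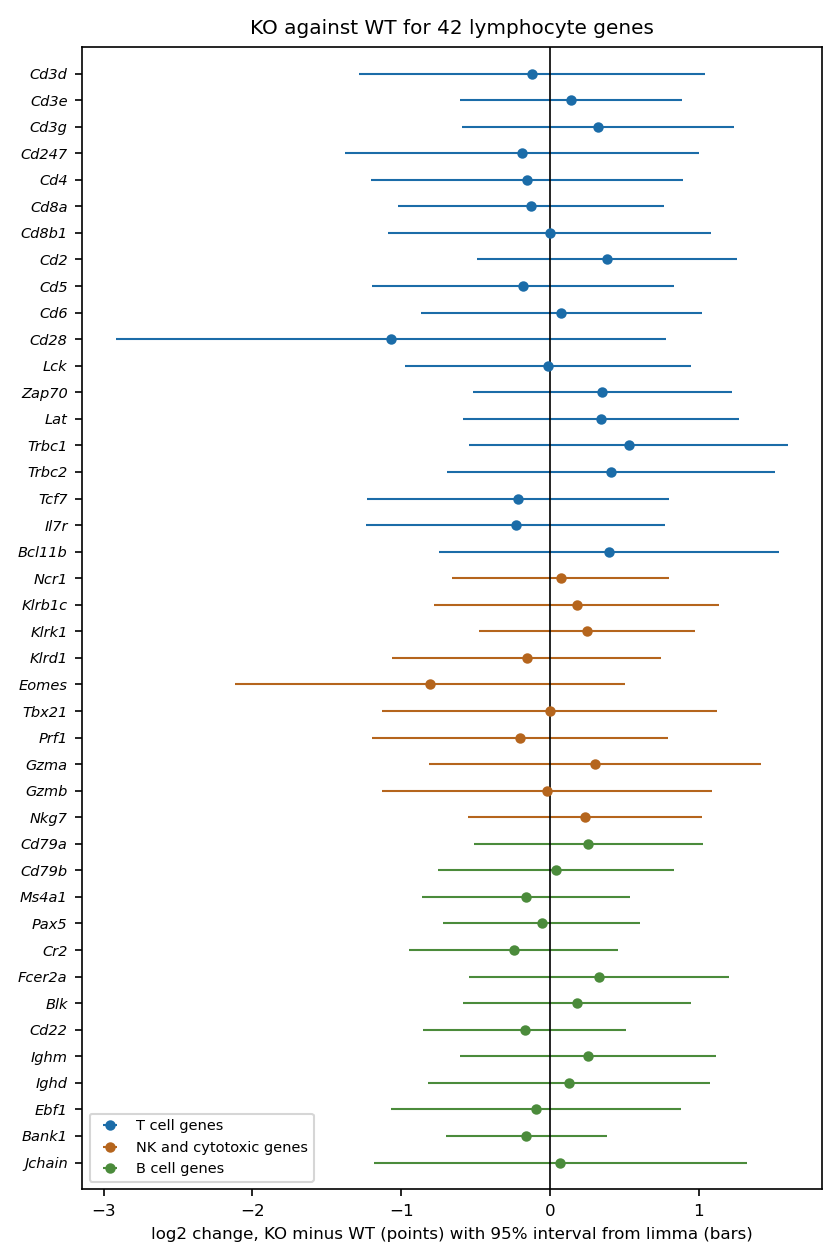
Log2 change of each of the 42 lymphocyte genes, KO minus WT, on the horizontal axis, with points for the limma estimate and bars for its 95% interval; colours mark the lineage. Every interval crosses 0, the widest being that of Cd28, from -2.92 to 0.78.

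The absence of calls came with wide intervals. The standard deviation within groups had a median of 0.72 (log2) over the 42 members and 0.36 over all tested genes. The standard error of the log2 change had a median of 0.42 over the members and 0.29 over all genes. The interval of Cd3e, for example, ran from -0.61 to 0.88, and that of Cd79a from -0.51 to 1.03. For 31 of the 42 members the interval held a log2 change of 1 or -1, so equal levels in the 2 genotypes were not shown.

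Among T cell genes, the median log2 change was -0.0015, with 9 of 19 above 0. The constant chains of the T cell receptor beta chain were among the 3 T cell genes of highest level per length. Trbc2 stood at 481, 336 and 1123 normalised counts in the WT libraries and 1482, 527 and 548 in the KO libraries, or a log2 change of 0.41 with an SE of 0.49 and an adjusted p of 0.726 in limma. Trbc1 stood at 413, 269 and 732 normalised counts in the WT libraries and 1323, 453 and 409 in the KO libraries, a log2 change of 0.53. Both were highest in KO replicate 1, then in WT replicate 3, and the groups overlapped. They are near-identical genes, so reads may have been split between them.

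The 4 CD3 genes encode the signalling chains of the receptor. Cd3e, whose protein pairs with those of Cd3d and Cd3g, was at 297, 302 and 659 normalised counts in the WT libraries and 569, 391 and 354 in the KO libraries (log2 change 0.14). Cd3g was at 395, 355 and 767 normalised counts in the WT libraries and 1101, 407 and 468 in the KO libraries (log2 change 0.32). Cd3d was at 353, 318 and 713 normalised counts in the WT libraries and 958, 217 and 300.2 in the KO libraries (log2 change -0.12). WT replicate 3 and KO replicate 1 were high for all 3 genes, and the other 4 libraries were low. The 3 genes lie together on chromosome 9 of GRCm38, between 44969572 and 45009627. Cd247, the zeta chain, was at 315, 291 and 668 normalised counts in the WT libraries and 806, 168 and 304 in the KO libraries (log2 change -0.19), with KO replicate 2 the lowest library. It shares 12.1% of its exon length with a model on the same strand, and Cd3e shares 9.23% with one on the opposite strand.

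The coreceptors Cd4 and Cd8 mark helper and cytotoxic T cells. Cd4 was at 273, 271 and 798 normalised counts in the WT libraries and 597, 231 and 309.5 in the KO libraries (log2 change -0.16). Cd8a was at 419, 425 and 1023 normalised counts in the WT libraries and 761, 556 and 329 in the KO libraries (log2 change -0.13), and it was highest in WT replicate 3. Cd8b1, the partner chain of Cd8a, was at 342, 339 and 857 normalised counts in the WT libraries and 961, 350.3 and 294 in the KO libraries (log2 change -0.00151). Its group means were nearly equal, 513 ± 298 for WT against 535 ± 369.8 for KO (mean ± SD, n = 3 each). The costimulatory and adhesion receptors gave log2 changes of 0.38 for Cd2, -0.18 for Cd5 and 0.0760 for Cd6. Cd28, the main costimulatory receptor, had the lowest level of all 42 members, at 22.7, 10.5 and 24.1 normalised counts in the WT libraries and 22.3, 3.57 and 5.92 in the KO libraries. Its log2 change of -1.07, with an SE of 0.82, rested on 100 reads in all 6 libraries, and WT replicate 1 was nearly as high as WT replicate 3.

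The receptor's kinases and adaptor followed the same libraries. Lck, the kinase that phosphorylates CD3, was at 1142, 1122 and 2369 normalised counts in the WT libraries and 2863, 1013 and 1019 in the KO libraries, a log2 change of -0.0128 (SE 0.43). Zap70, which binds phosphorylated CD3, was at 229.7, 282 and 601 normalised counts in the WT libraries and 639, 300.2 and 423 in the KO libraries (log2 change 0.35). Lat, the membrane adaptor, was at 357, 424 and 976 normalised counts in the WT libraries and 1116, 564 and 482 in the KO libraries (log2 change 0.34). WT replicate 3 and KO replicate 1 were again the high libraries for each. Tcf7, a transcription factor of naive and memory T cells and of innate lymphocytes, ranged from 909 in KO replicate 2 to 3418 in KO replicate 1 (log2 change -0.21). Bcl11b, which fixes T cell identity, had a log2 change of 0.40, with WT replicate 1 the lowest library. Il7r, the receptor for the survival cytokine IL-7, was at 713, 733 and 1389 normalised counts in the WT libraries and 1572, 416 and 685 in the KO libraries (log2 change -0.23).

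Of the NK and cytotoxic genes, 5 of 10 lay above 0, with a median log2 change of 0.03. Nkg7, a protein of cytotoxic granules, had the highest level per length of this lineage, 1199 normalised counts per kilobase. It was at 728, 679 and 1555 normalised counts in the WT libraries and 1608, 948 and 821 in the KO libraries (log2 change 0.23). Gzma, granzyme A, was at 464, 494 and 1149 normalised counts in the WT libraries and 1195, 1170 and 353 in the KO libraries (log2 change 0.30). Unlike most members, Gzma was as high in KO replicate 2 as in KO replicate 1 and WT replicate 3. Gzmb, granzyme B, was at 617, 349.6 and 886 normalised counts in the WT libraries and 1290.2, 348 and 406 in the KO libraries (log2 change -0.0226), and Prf1, the pore-forming perforin, had a log2 change of -0.20. For Gzmb, KO replicate 2 was the lowest library.

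NK cells carry activating and inhibitory receptors on their surface. Ncr1, which encodes the activating receptor NKp46, was at 313, 257 and 427 normalised counts in the WT libraries and 507, 219 and 359 in the KO libraries (log2 change 0.0705). Klrb1c, the NK1.1 antigen, was at 535, 356 and 772 normalised counts in the WT libraries and 1144, 339.6 and 548 in the KO libraries (log2 change 0.18), with 15.4% of its exon length shared with a model on the same strand. Klrk1, the receptor NKG2D, had a log2 change of 0.25, and Klrd1, the CD94 chain, had -0.16. These 3 genes lie on chromosome 6, and KO replicate 1 was the highest library for all 4 receptor genes. Of the T-box factors that direct NK development, Tbx21 was at 122, 192 and 448 normalised counts in the WT libraries and 389, 143 and 187 in the KO libraries (log2 change -0.00328). Eomes was at 183, 130.2 and 246 normalised counts in the WT libraries and 286, 47.7 and 78.6 in the KO libraries, a log2 change of -0.81 (SE 0.58, 95% interval -2.12 to 0.50). KO replicates 2 and 3 were the lowest libraries for Eomes, but KO replicate 1 was the highest.

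B cell genes held the most reads, with 7 of 13 above 0 and a median log2 change of 0.04. Ighm, the constant region of IgM, was at 18122, 13527 and 26979 normalised counts in the WT libraries and 34814, 21484 and 15045 in the KO libraries (log2 change 0.26, SE 0.38). Ighd, the constant region of IgD on mature B cells, was at 3594, 2104 and 6527 normalised counts in the WT libraries and 5938, 4342 and 2505 in the KO libraries (log2 change 0.13). Both lie on chromosome 12, and per kilobase they led all 42 members, with 12757 and 2308 normalised counts. The signalling chains of the receptor followed: Cd79a was at 2152, 1515 and 3452 normalised counts in the WT libraries and 3683, 2982 and 1748 in the KO libraries (log2 change 0.26), and Cd79b at 2388, 1508 and 3642 normalised counts in the WT libraries and 3382, 2633 and 1592 in the KO libraries (log2 change 0.0375). WT replicate 3 and KO replicate 1 were high for these 4 genes and WT replicate 2 was the lowest.

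The surface molecules of B cells gave changes on both sides of 0. Ms4a1, the antigen CD20, was at 2239, 1342 and 3112 normalised counts in the WT libraries and 2391, 1964 and 1416 in the KO libraries (log2 change -0.16). Cd22, an inhibitory coreceptor, was at 2478, 1991 and 3944 normalised counts in the WT libraries and 3123, 2639 and 1656 in the KO libraries (log2 change -0.17), with 12.1% of its exon length under a model on the opposite strand. Cr2, the complement receptor CD21, was at 499, 355 and 860.2 normalised counts in the WT libraries and 502, 498 and 365 in the KO libraries (log2 change -0.25). For all 3 genes WT replicate 3 was the highest library. Fcer2a, the low-affinity IgE receptor CD23, was at 1484, 899.9 and 2582 normalised counts in the WT libraries and 2463, 2295 and 1204 in the KO libraries (log2 change 0.33). It was the B cell gene of largest log2 change, still smaller than its SE of 0.39.

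Blk, a receptor kinase, had a log2 change of 0.18, and Bank1, a scaffold protein of B cells, had -0.16 with the smallest spread within groups of the 42 members (SD 0.35, log2). Pax5, the factor that commits cells to the B lineage, had -0.0554, and Ebf1, an early factor of that lineage, had -0.0935. Ebf1 was the only member with its highest value in KO replicate 2, at 729, 804 and 269.8 in the KO libraries and 671, 357 and 802 in the WT libraries. Jchain, the joining chain of secreted IgM and IgA and a plasma cell gene, was at 1513, 1011 and 2381 normalised counts in the WT libraries and 4248, 1329.7 and 745 in the KO libraries (log2 change 0.0693). KO replicate 1 was 5.70 times KO replicate 3, within 1 genotype. The transcript with the highest mean for Jchain was a retained-intron form, at 1871 normalised counts. The protein-coding form was nearly equal, at 1852, so the retained-intron form was not shown to predominate.

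Across all 3 lineages the libraries differed more than the genotypes. WT replicate 3 and KO replicate 1 were the 2 highest libraries for 38 of the 42 members (18 T, 9 NK and 11 B), as they were for 10.6% of all tested genes. The 4 exceptions were Cd28, Gzma, Ebf1 and Bank1. The highest single library was KO replicate 1 for 24 members, WT replicate 3 for 17 and KO replicate 2 for 1. The lowest was WT replicate 2 for 15, KO replicate 2 for 13, KO replicate 3 for 8 and WT replicate 1 for 6. In all 42 members the span within a genotype exceeded the difference between genotypes, as it did in 85.8% of all genes.

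**Figure D2:**
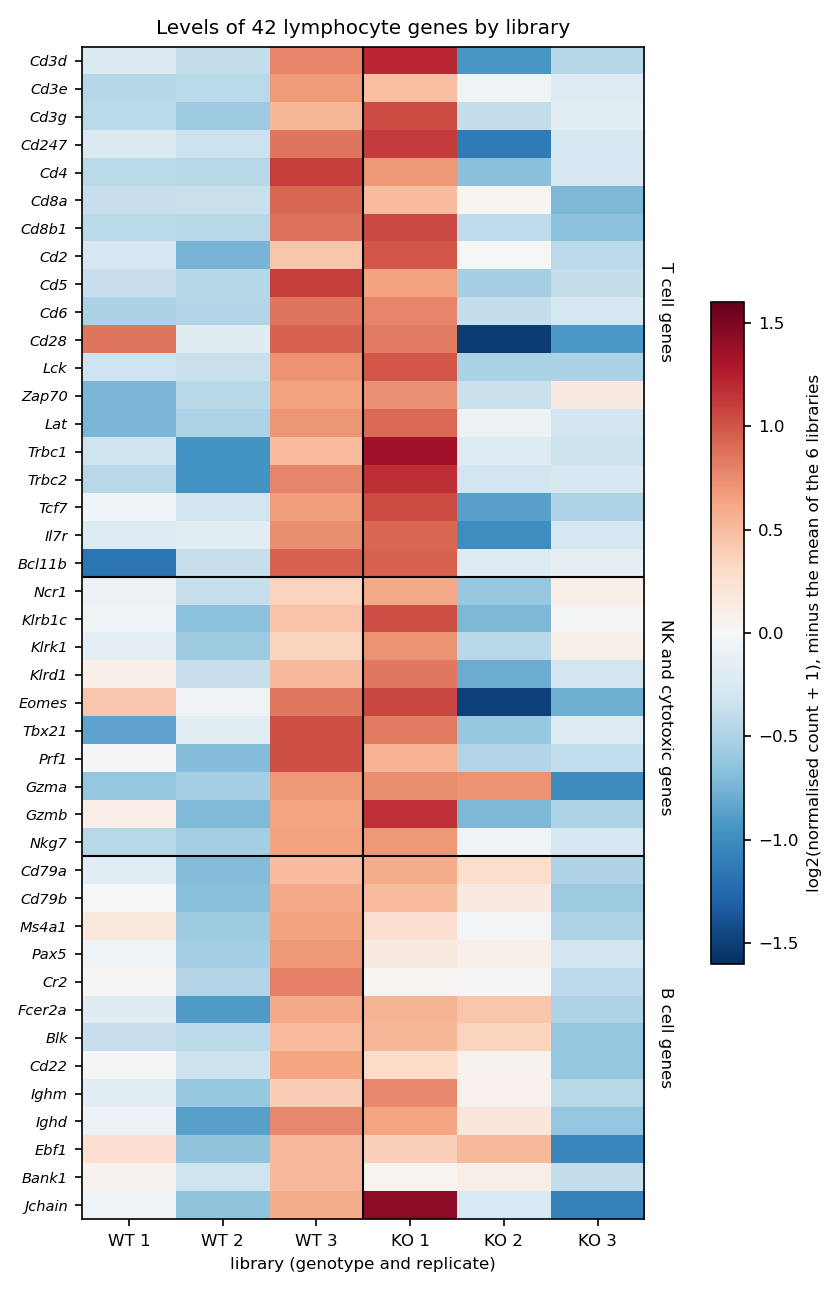
Level of each lymphocyte gene (rows) in each library (columns), as log2 of the normalised count plus 1 minus the gene's mean over the 6 libraries; red is above and blue below that mean, and black lines part lineages and genotypes. The columns of WT replicate 3 and KO replicate 1 are red for nearly all 42 genes.

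Averaged over the 19 T cell genes, the mean log2 level relative to the 6-library mean was -0.36, -0.47 and 0.78 in the WT libraries and 0.92, -0.50 and -0.37 in the KO libraries. For the 10 NK and cytotoxic genes it was -0.16, -0.47 and 0.66 in WT and 0.83, -0.52 and -0.33 in KO. The 13 B cell genes gave -0.051, -0.59 and 0.60 in WT and 0.47, 0.15 and -0.58 in KO. KO replicate 2 was thus low for T and NK genes but above the mean for B cell genes. The T average minus the B average was -0.65 in KO replicate 2 and between -0.31 and 0.44 in the other 5 libraries. As a share of the library, the T cell genes summed to 0.0466% to 0.149% of the reads in WT and 0.0532% to 0.135% in KO libraries. The NK genes summed to 0.0188% to 0.0583% in WT and 0.0239% to 0.0523% in KO, and the B cell genes to 0.158% to 0.486% in WT and 0.183% to 0.411% in KO libraries.

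**Figure D3:**
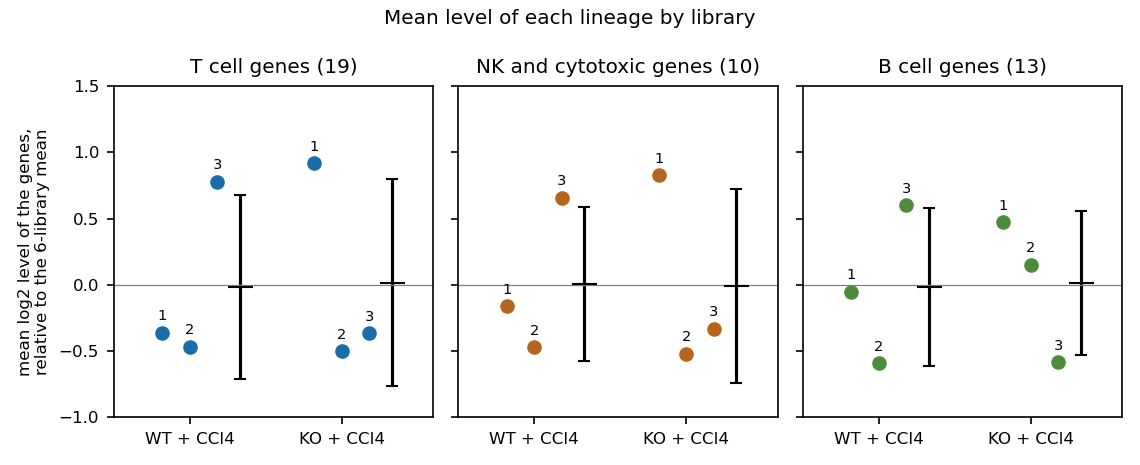
Mean log2 level of the T, NK and B cell genes in each library, relative to the mean of the 6 libraries; points are libraries with their replicate number, and bars are the mean ± SD of 3 libraries. In each lineage WT replicate 3 and KO replicate 1 are the highest points of their genotype and the group means nearly coincide.

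Other markers also moved with these 2 libraries. Of 8 plasmacytoid dendritic cell genes, 6 had them as the 2 highest libraries, and their average log2 level was 0.66 and 0.33 there, against -0.66 to 0.12 in the other 4. The 7 mast cell and basophil genes summed to 0.00723% of the reads in WT replicate 3 and 0.00642% in KO replicate 1, beside 0.00195% to 0.00314% in the other 4 libraries. The average log2 level of the 15 macrophage genes was lowest in the same libraries, at -0.30 and -0.62, where the others ranged from -0.21 to 0.81. These averages include Lyz2, which was far lower in KO. Without Lyz2 they were -0.51 in WT replicate 3 and -0.37 in KO replicate 1, and -0.018 to 0.64 in the others. The share of mitochondrial reads was lowest in WT replicate 3 but 16.4% in KO replicate 1. The 8 erythroid genes stood at opposite ends, with 0.0179% of the reads in WT replicate 3 and 1.67% in KO replicate 1. The part of these differences in the lymphocyte levels was not tested.

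Without these 2 libraries limma called 0 of the 41 members that could be tested (4.47% of all genes), and the median log2 changes were 0.09 for T, -0.022 for NK and 0.11 for B cell genes. Leaving out only WT replicate 3 moved the medians to 0.44, 0.37 and 0.35. Leaving out only KO replicate 1 moved them to -0.41, -0.35 and -0.20. The medians of all 3 lineages were thus above 0 without the first library and below 0 without the second, and no member was called in either fit (1.32% and 4.99% of all genes). In each of these 3 fits 2 members had an unadjusted p under 0.05, against 19.5%, 15.5% and 20.3% of all genes: Tcf7 and Eomes, both lower in KO, without the 2 libraries together and without KO replicate 1, and Zap70 and Bcl11b, both higher in KO, without WT replicate 3.

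Ratios between genes of 1 lineage remove the level that its members share. They were chosen after the values were seen: 39 ratios of members to a reference gene of their lineage, and 11 further pairs. With 3 libraries a group, an exact two-sided permutation test cannot fall below p = 0.1, so these ratios are given as values. None of the 18 T cell ratios to Cd3e and none of the 9 NK ratios to Ncr1 had groups without overlap, against 6.31% and 6.68% of all genes divided by Cd3e and by Ncr1. Of the 12 B cell ratios to Cd79a, 4 lay lower in all 3 KO than in all 3 WT libraries, as did 3.36% of all genes divided by Cd79a. The 12 ratios share their denominator, and the 3.36% counts the lower direction alone, unlike the shares for Cd3e and Ncr1.

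Cd22 per Cd79a was 1.15, 1.31 and 1.14 in the WT libraries and 0.848, 0.885 and 0.947 in the KO libraries, or 1.20 ± 0.0965 and 0.893 ± 0.0502 (SD, n = 3 each). Ms4a1 per Cd79a was 1.04, 0.886 and 0.902 in WT and 0.649, 0.658 and 0.810 in KO. Cr2 per Cd79a was 0.232, 0.234 and 0.249 in WT and 0.136, 0.167 and 0.209 in KO. Cd22, CD20 and CD21 messages were thus scarcer per Cd79a message in each KO library, WT replicate 3 and KO replicate 1 included. This separation depended on the reference gene. Divided by Cd79b instead, KO replicate 3 fell among the WT values for each of these genes. Cd79b per Cd79a differed less, at 1.11, 0.995 and 1.06 in WT and 0.918, 0.883 and 0.911 in KO. Ighm per Cd79a, at 8.42, 8.93 and 7.82 and 9.45, 7.20 and 8.61, and Fcer2a per Cd79a, at 0.689, 0.594 and 0.748 and 0.669, 0.769 and 0.689, overlapped. Pax5 and Bank1 per Cd79a were lowest in KO replicates 1 and 2, but KO replicate 3 fell among the WT values.

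**Figure D4:**
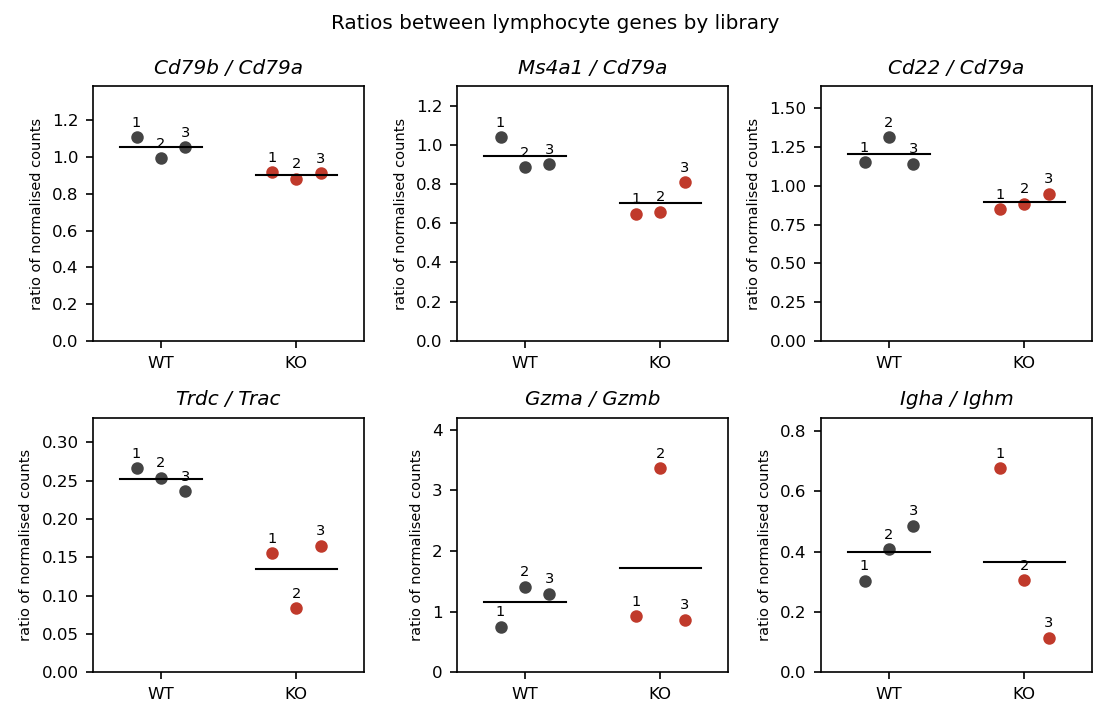
Ratios of normalised counts between 2 genes in each library; points are libraries with their replicate number and lines are the mean of 3. Cd79b, Ms4a1 and Cd22 per Cd79a and Trdc per Trac lie lower in every KO than in every WT library, whereas Gzma per Gzmb and Igha per Ighm overlap.

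Of the 11 further pairs, 1 had groups without overlap. This was Trdc, the constant chain of gamma-delta T cells, per Trac, that of alpha-beta T cells. It was 0.266, 0.254 and 0.236 in the WT libraries and 0.156, 0.0841 and 0.165 in the KO libraries, where 1.93% of all genes lay lower in KO per Trac. Trdc itself was at 151, 92.4 and 241 normalised counts in the WT libraries and 176, 46.5 and 80.3 in the KO libraries and overlapped. Its log2 change was -0.78, but the gamma chain genes Tcrg-C1, Tcrg-C2 and Tcrg-C4 had -0.34, 0.20 and 0.59. The single genes behind each of these ratios were not called.

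KO replicate 2 stood apart in some ratios. Its Cd8a per Cd4 was 2.41, beside 1.06 to 1.57 in the other 5 libraries. The partner chain did not share this: its Cd8b1 per Cd8a was the lowest, 0.630 beside 0.798 to 1.26. Its Cd8b1 per Cd4 lay within the range of the other libraries. Its Gzma per Gzmb was 3.36, beside 0.751 to 1.41. Its Cd247 per Cd3e was 0.430 and its Cd3d per Cd3e 0.555, where the others gave at least 0.859 and 0.847. Cytotoxic granule genes thus did not move as a block there. Eomes per Ncr1 was 0.565, 0.217 and 0.219 in the KO libraries, low in replicates 2 and 3 only, and 0.586, 0.506 and 0.576 in WT.

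Antibody genes varied widely within genotypes. Igha, the constant region of IgA, was at 5519.9, 5526 and 13112 normalised counts in the WT libraries and 23530, 6554 and 1738 in the KO libraries. Igha per Ighm was 0.305, 0.409 and 0.486 in WT and 0.676, 0.305 and 0.116 in KO libraries, so the extremes both lay in KO. Igkc, the kappa light chain, was at 12070, 8976 and 20941 normalised counts in the WT libraries and 31422, 14851 and 9479 in the KO libraries, and per Ighm it stayed between 0.630 and 0.903 in the 6 libraries. Jchain per Cd79a was 1.15, 0.446 and 0.426 in KO, against 0.703, 0.667 and 0.690 in WT. Among the IgG genes, Ighg1 was highest in KO replicate 3, at 142, 232 and 405 normalised counts in the WT libraries and 55.1, 54.8 and 534 in the KO libraries. Ighg3, at 58.7, 6.30 and 182 normalised counts in the WT libraries and 322, 77.4 and 7.61 in the KO libraries, was highest in KO replicate 1 and then in WT replicate 3, as Igha was. Ighg2c had 0 reads in WT replicate 1, which allows up to 3 reads or 3.09 normalised counts there (counting error only), and 81.0 to 384 in the other libraries.

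Divided by Ptprc, lymphocyte genes looked higher in KO libraries. The B cell genes summed to 1.24, 1.43 and 2.60 normalised counts per Ptprc count in WT and to 4.11, 4.04 and 3.01 in KO. The NK genes summed to 0.131, 0.170 and 0.313 in WT and 0.522, 0.358 and 0.393 in KO. The T cell genes, at 0.280, 0.421 and 0.799 in WT and 1.35, 0.726 and 0.876 in KO, overlapped. However, 61.6% of all tested genes lay higher in every KO library per Ptprc, and Ptprc itself was lower in every KO library.

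Further genes of the 3 lineages gave the same picture with few exceptions. Of 36 other T cell genes 34 were tested and 0 called, with a median log2 change of -0.010. All 30 other NK genes were tested and 0 called, with a median of -0.010. Of 38 other B cell genes 36 were tested, 0 were called higher and 1 lower, with a median of -0.070. Over all tested genes, limma called 2.09% higher and 0.352% lower. Of the 34, 30 and 36 tested genes, 4, 2 and 5 had an unadjusted p under 0.05 in limma, against 18.0% of all tested genes. The precursor B cell genes Rag1 and Igll1 had 110 and 4 reads in all 6 libraries.

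The called gene was Pou2f2, the octamer factor Oct-2. It was at 2761, 2500.1 and 2815 normalised counts in the WT libraries and 1279.8, 1058 and 856 in the KO libraries, with no overlap (log2 change -1.36, SE 0.19, adjusted p in limma 0.0147). Without KO replicate 3 the log2 change was -1.21 and the limma adjusted p 0.0742, in a fit that called 8 genes of the whole table. With the other libraries left out the call was kept, at log2 changes of -1.50 to -1.32. Pou2f2 is known from myeloid cells too, and its libraries of 1 genotype lay closer together than those of the B cell members. Of the other B cell genes of smallest p, Cd180, a Toll-like receptor homologue, had a log2 change of -0.79 (limma adjusted p = 0.0927), Cd40 had -0.76 (0.0995) and Btk had -0.54 (0.183). These 3 genes are also read in macrophages. DESeq2, which called 9.02% of all tested genes, called Cd180 (adjusted p = 0.0183) and Cd40 (0.0115) lower in KO.

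The T cell genes of smallest p were Lcp2, an adaptor that myeloid cells share (-0.85, limma adjusted p = 0.0705), and S1pr1, an egress receptor that endothelium shares (0.53, 0.142). Il2ra, a marker of regulatory and activated T cells, had -1.29 (0.206), at 87.6, 105 and 208 normalised counts in the WT libraries and 53.6, 27.4 and 85.4 in the KO libraries. Foxp3, the factor of regulatory T cells, was at 92.7, 114 and 195 normalised counts in the WT libraries and 143, 39.3 and 42.3 in the KO libraries (log2 change -1.03, limma adjusted p = 0.355). Of NK genes, Cd244a had -0.91 (0.0675), Sh2d1b1 -1.37 (0.130), Il12rb2 -0.56 (0.308) and Cd160 0.68 (0.392), as log2 changes with limma adjusted p. limma called none of these genes, but other fits did. DESeq2, with 9.02% of all tested genes called, called Lcp2 (adjusted p = 0.00131), Cd244a (0.00327) and Sh2d1b1 (0.0272), all lower in KO. Lcp2 and Sh2d1b1 were also called by limma without KO replicate 1 (0.0468 and 0.0369) and without WT replicate 3 and KO replicate 1 together (0.0274 and 0.0408), and Lcp2 with totals that left out mitochondrial genes (0.0418). Ccl5, a chemokine of effector T and NK cells, was at 1303, 1321 and 3476 normalised counts in the WT libraries and 3705, 2601 and 1684 in the KO libraries and followed WT replicate 3 and KO replicate 1.

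Some markers of other liver cells differed by genotype. Over all tested genes, 2.09% were called higher and 0.352% lower in KO. The 10 hepatocyte genes had a median log2 change of 2.30, with 7 called higher. They summed to 0.193% to 0.415% of the reads in WT and 0.609% to 1.03% in KO libraries. The 10 endothelial genes had a median of 1.28, with 3 called higher, and summed to 0.209% to 0.285% in WT and 0.329% to 0.694% in KO. The 15 macrophage genes summed to 1.12% to 1.55% of the reads in WT and 0.467% to 0.616% in KO, with a median log2 change of -0.095. The 1 called, Lyz2, which encodes lysozyme, was at 111085, 93637 and 63752 normalised counts in the WT libraries and 587, 1394 and 2023 in the KO libraries (log2 change -6.20, limma adjusted p = 0.00151). Without Lyz2 the macrophage sums were 0.612% to 1.003% of the reads in WT and 0.464% to 0.603% in KO, and as normalised counts they overlapped. The summed lymphocyte genes overlapped between genotypes in each lineage. The part of the other cells in the lymphocyte values was not tested.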

How the data were processed

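RNA of 6 libraries (3 WT, 3 KO) was read from the deposited tables. Per the file headers, each holds a signal for 79382 Ensembl transcripts called normalised counts; all values were whole multiples of 1 read's worth (100% within a tolerance of 0.001), so whole reads were recovered. Of tools, the submitters' processing notes name STAR 2.4.0k, HTSeq 0.5.3, DESeq 1.8.3, bcl2fastq 2.17 and SAMtools, with the build GRCm38.p4. The annotation and the options for strand and for reads with several matches are not given in these sources. GENCODE M21 of GRCm38 named 78332 transcripts; the 1050 others (1.03% to 1.32% of reads) were left out, and the transcript of highest mean was kept per gene. limma 3.58.1 (trended prior) compared KO with WT on log2(value + 1) over 15619 genes kept by filterByExpr, two-sided, with Benjamini-Hochberg adjustment and calls under 0.05. edgeR 4.0.16, DESeq2 1.42.0, limma-voom, other factors, filters, pseudocounts (0.5, 5), summed transcripts, a replicate block and left-out libraries were alternatives; leaving out WT replicate 3 with KO replicate 1 was added after seeing the data. The scripts were tested on simulated data. Members and lists were chosen with earlier results of these data known. The rule for names took all members, called genes and up to 4 further genes of smallest p per list, Ptprc and Adgre1, with values per library for the members of highest level; other genes named, other values per library and all ratios were chosen after the values were seen. Values of some genes of these lists are not reported here. Promoter sequences are from RefSeq (GRCm38.p6). Precision is limited by 3 libraries a group.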

Additional observations from a re-analysis of the deposited data

How the results depend on the processing

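No member was called in any of the 12 alternatives that kept all libraries or the 7 that left libraries out, and the smallest adjusted p of a member (limma) was 0.0581, without KO replicate 1. The count of called genes over the whole table, 381, became 1409 with DESeq2, 233 with summed transcripts, and 8 to 809 with libraries left out, of which 701 without WT replicate 3 and KO replicate 1 together. The replicate block called 539 genes and 0 members. Same-numbered libraries of the genotypes correlated at -0.015, 0.088 and -0.14, and differently numbered ones at -0.13 to 0.14. These are correlations of deviations from means of 3 libraries, which are tied to each other. They cannot decide whether the numbers mark a pairing. The log2 changes of 10 members changed sign in fits that kept all libraries. With DESeq2 they became 0.0180 for Cd3d, -0.0369 for Cd6, 0.0121 for Lck, 0.0739 for Gzmb and -0.0402 for Cd79b. With edgeR with DESeq2-style factors they became 0.0117 for Cd3d, -0.0414 for Cd6, 0.00994 for Lck, 0.0691 for Gzmb and -0.0409 for Cd79b. With edgeR with TMM factors they became -0.0121 for Cd3e, -0.0553 for Cd6, 0.0543 for Gzmb, -0.0546 for Cd79b and -0.00569 for Ighd. With limma-voom they became -0.0209 for Cd3e, -0.10 for Cd6 and -0.0419 for Ncr1. With TMM factors in limma they became -0.0183 for Cd79b. With totals without mitochondrial genes they became -0.00539 for Ncr1, -0.0386 for Cd79b and -0.00678 for Jchain. With summed transcripts they became 0.17 for Pax5. With libraries left out, the log2 changes of T cell genes ranged from -0.75 to 0.31 for Cd3d, -0.0660 to 0.52 for Cd3e, -0.12 to 0.67 for Cd3g, -0.80 to 0.33 for Cd247, -0.54 to 0.36 for Cd4 and -0.41 to 0.30 for Cd8a. Other T cell genes ranged from -0.53 to 0.44 for Cd8b1, -0.0242 to 0.69 for Cd2, -0.54 to 0.33 for Cd5, -0.30 to 0.52 for Cd6, -0.51 to 0.34 for Lck and -0.0215 to 0.79 for Lat. Other T cell genes ranged from -0.00905 to 0.91 for Trbc1, -0.0761 to 0.90 for Trbc2, -0.79 to 0.17 for Tcf7, -0.75 to 0.21 for Il7r and -0.0900 to 0.97 for Bcl11b. With libraries left out, the log2 changes of NK and cytotoxic genes ranged from -0.21 to 0.39 for Ncr1, -0.29 to 0.58 for Klrb1c, -0.0488 to 0.53 for Klrk1, -0.62 to 0.20 for Klrd1, -0.42 to 0.51 for Tbx21 and -0.60 to 0.26 for Prf1. Other NK and cytotoxic genes ranged from -0.61 to 0.33 for Gzmb and -0.0545 to 0.61 for Nkg7. With libraries left out, the log2 changes of B cell genes ranged from -0.0255 to 0.57 for Cd79a, -0.28 to 0.35 for Cd79b, -0.49 to 0.12 for Ms4a1, -0.34 to 0.28 for Pax5, -0.54 to 0.10 for Cr2 and -0.0466 to 0.71 for Fcer2a. Other B cell genes ranged from -0.0410 to 0.54 for Blk, -0.39 to 0.11 for Cd22, -0.0622 to 0.54 for Ighm, -0.27 to 0.54 for Ighd, -0.44 to 0.41 for Ebf1 and -0.36 to 0.0601 for Bank1. Other B cell genes ranged from -0.63 to 0.63 for Jchain. The lineage medians ran from -0.41 to 0.44 (T), -0.35 to 0.37 (NK) and -0.29 to 0.41 (B) with libraries left out. The cause was not tested. With 3 libraries a group, the intervals of 31 of the 42 members held a log2 change of 1 or -1, so changes of that size could be missed.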
